A study of Mus musculus with 9 samples.

Results

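The Serpina3 family is a group of serpins, inhibitors of serine proteases, whose genes lie side by side in a larger serpin cluster on mouse chromosome 12. The 6 genes described here, Serpina3n, Serpina3m, Serpina3k, Serpina3c, Serpina3f and Serpina3g, were taken by name, after Serpina3n had been seen to stand high in muscle without MCU. The question was whether that rise was limited to Serpina3n. Of the 6 genes, 2 had a probe set named in the platform's annotation, Serpina3n and Serpina3f, out of 19505 genes named in all. The other 4 (Serpina3m, Serpina3k, Serpina3c and Serpina3g) had no named probe set, so no value is given for them. To widen the view, 4 more Serpina3 genes of the cluster with a probe set (Serpina3a, Serpina3b, Serpina3i and Serpina3j), 13 further serpins of the cluster and 36 serpins encoded elsewhere were read in the same way.

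The tissue was tibialis anterior, the fast muscle at the front of the shin, of C57/BL6 mice aged 2 months. The genotypes were MCU knockout (MCU-/-/MCUb+/+), MCUb knockout (MCU+/+/MCUb-/-) and control (MCU+/+/MCUb+/+), with 3 arrays each. MCU forms the pore of the mitochondrial calcium uniporter and MCUb is its paralogue. How either deletion was made, and the sex of the mice, is not stated in the sources used here. The deposited values were read as log2, although their base is not stated, and every fold rests on that reading. Nothing in the labels says that the arrays of a genotype came from separate animals. A p-value here thus reflects how far these samples differ among themselves, and part of that spread may be technical.

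A serpin offers a protease its exposed reactive loop as bait; when the loop is cut, the serpin changes shape and holds the protease in a dead complex. Human SERPINA3, or antichymotrypsin, is a single gene, while in rodents it has multiplied into a tandem array whose products differ chiefly in that loop. Mouse Serpina3n encodes a secreted protein that inhibits leukocyte proteases such as granzyme B and neutrophil elastase, and it is a known target of glucocorticoids and of inflammatory signalling through STAT3. Serpina3c encodes a kallikrein-binding protein, and Serpina3g, or Spi2A, is an inhibitor that acts inside leukocytes against lysosomal proteases.

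The start regions of the genes are printed for the members that RefSeq holds. RefSeq (GRCm38.p6) held the promoter of 4 of the 6 genes, each as 250 bases before and 50 bases from the start of the transcript. They were searched on both strands for the STAT site TTCNNNGAA and for ACANNNTGT, the core of a glucocorticoid receptor site, which are the same on either strand and did not overlap with each other here. Matches are in capitals, and the rest is in lower case.
Serpina3n, chr12:104406458-104406757, plus strand: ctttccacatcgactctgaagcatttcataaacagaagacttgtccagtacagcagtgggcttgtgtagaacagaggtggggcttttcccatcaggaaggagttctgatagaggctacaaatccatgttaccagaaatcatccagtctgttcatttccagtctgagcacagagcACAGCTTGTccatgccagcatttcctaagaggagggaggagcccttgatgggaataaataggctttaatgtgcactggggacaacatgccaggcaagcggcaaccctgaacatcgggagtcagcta
Serpina3c, chr12:104153823-104154122, minus strand: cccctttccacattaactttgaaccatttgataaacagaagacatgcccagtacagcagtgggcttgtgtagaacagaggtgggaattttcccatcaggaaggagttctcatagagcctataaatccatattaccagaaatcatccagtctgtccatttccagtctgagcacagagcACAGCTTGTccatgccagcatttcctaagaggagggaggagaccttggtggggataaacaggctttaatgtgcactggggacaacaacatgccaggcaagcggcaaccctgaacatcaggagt
Serpina3f, upstream start, chr12:104214294-104214593, plus strand: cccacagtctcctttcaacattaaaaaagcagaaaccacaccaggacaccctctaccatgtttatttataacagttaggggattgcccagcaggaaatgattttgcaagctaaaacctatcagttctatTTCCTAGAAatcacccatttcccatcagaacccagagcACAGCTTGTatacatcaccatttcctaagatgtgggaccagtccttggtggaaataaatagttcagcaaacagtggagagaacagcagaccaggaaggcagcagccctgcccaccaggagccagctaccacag
Serpina3g, chr12:104235897-104236196, plus strand: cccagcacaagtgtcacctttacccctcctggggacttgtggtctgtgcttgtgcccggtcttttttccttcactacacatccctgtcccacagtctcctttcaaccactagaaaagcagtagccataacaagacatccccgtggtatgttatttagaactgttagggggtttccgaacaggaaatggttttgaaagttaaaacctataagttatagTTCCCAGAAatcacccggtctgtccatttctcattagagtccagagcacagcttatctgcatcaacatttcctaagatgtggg
Over a global alignment, gaps counted as differences, the Serpina3n promoter was 89.9% identical to that of Serpina3c, 62.7% to that of Serpina3f at its upstream start and 38.0% to that of Serpina3g. Such a value depends on where the window lies: at its second annotated start, with the window further downstream, Serpina3f had 38.2%. Serpina3n held 1 glucocorticoid receptor core, ACAGCTTGT, 76 bases before the start, and so did Serpina3c (73 bases before it) and Serpina3f (83 bases before its upstream start). Among all 32851 promoters in the table, 6.85% held such a core. The STAT site was present in Serpina3f (TTCCTAGAA) and Serpina3g (TTCCCAGAA), and these letters were not in the Serpina3n or Serpina3c window, against 8.30% of all promoters. Outside the members, the Serpina3i window held the same ACAGCTTGT and TTCCCAGAA, while those of Serpina3a, Serpina3b and Serpina3j held neither site. Windows of related copies are not separate cases, so no enrichment is read from their counts beside these shares. Both sites are matches of letters in a window and not measured binding.

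Before the members, the arrays were checked. Mcu itself stood at 6.80, 6.98 and 7.06 on the MCU knockout arrays, 10.71, 11.06 and 10.81 on the MCUb knockout arrays, and 10.38, 10.96 and 10.46 on the control arrays. Mcub, the gene deleted in the other knockout, was not analysed here, so the data do not check that label. A probe set was called above background when it lay over the 95th percentile of its array's own background sets, as 45.3% to 45.9% of probe sets did. That limit was 5.87 to 5.92 on the deposited log2 scale. Control replicate 3 correlated least with the other arrays (mean 0.978, against 0.985 to 0.988 for the rest). Of 12 muscle fibre markers, 12 were above background on every array. The Y-linked genes Uty and Kdm5d averaged 7.24 to 7.80 on MCU knockout replicates 2 and 3 and MCUb knockout replicate 1. Their mean was 3.01 to 3.89 on the other 6, which include the 3 control arrays. Each knockout thus had arrays of high and of low Y-linked level, so its arrays cannot all be of the same animal. The Y-linked level was not balanced between the genotypes.

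Serpina3n was detected in muscle without MCU and lay below background in both other genotypes. Its log2 level (probe set TC1200001047.mm.2) was 7.71, 8.16 and 7.77 on the MCU knockout arrays. On the MCUb knockout arrays it was 4.32, 3.87 and 4.76, and on the control arrays 4.14, 4.20 and 4.02. All 3 MCU knockout arrays were above background and all 6 others below it, so the groups did not overlap and the order of the other 6 levels carries no information.

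The mean of Serpina3n was 7.88 ± 0.24 in MCU knockout muscle, 4.32 ± 0.45 in MCUb knockout muscle and 4.12 ± 0.09 in control muscle (SD, n = 3 each). Against the background limit the MCU knockout level was at least 3.95-fold higher than control and at least 3.97-fold higher than the MCUb knockout. The difference of the deposited values was 3.76 on the log2 scale against control (SE 0.24) and 3.56 against the MCUb knockout, but both rest on levels below background. It was the second highest of 22206 probe sets in either comparison. These values chose the gene and are given without a p-value. In whole muscle, more cells that make a transcript cannot be told apart from more transcript per cell.

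Between MCUb knockout and control the difference of Serpina3n was 0.19 on the log2 scale (SE 0.24, 95% interval -0.32 to 0.71, adjusted p = 0.835 in limma), with every array of both groups below background. Since the control arrays also served to choose the gene, this says only that Serpina3n was not detected in the MCUb knockout. In that comparison 0.0225% of all probe sets were called at an adjusted p under 0.05. The Y-linked level was high on 2 of 3 MCU knockout arrays and low on all 3 control arrays, and Serpina3n averaged 1.96 higher on the log2 scale on the 3 arrays where it was high than on the other 6. MCU knockout replicate 1, where that level was low, had 7.71, and MCUb knockout replicate 1, where it was high, had 4.32. Adding the mean of Uty and Kdm5d to the fit gave a difference from control of 3.66, and leaving out control replicate 3 gave 3.71. In the MCUb knockout comparison the difference was 0.14 without control replicate 3.

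**Figure D1:**
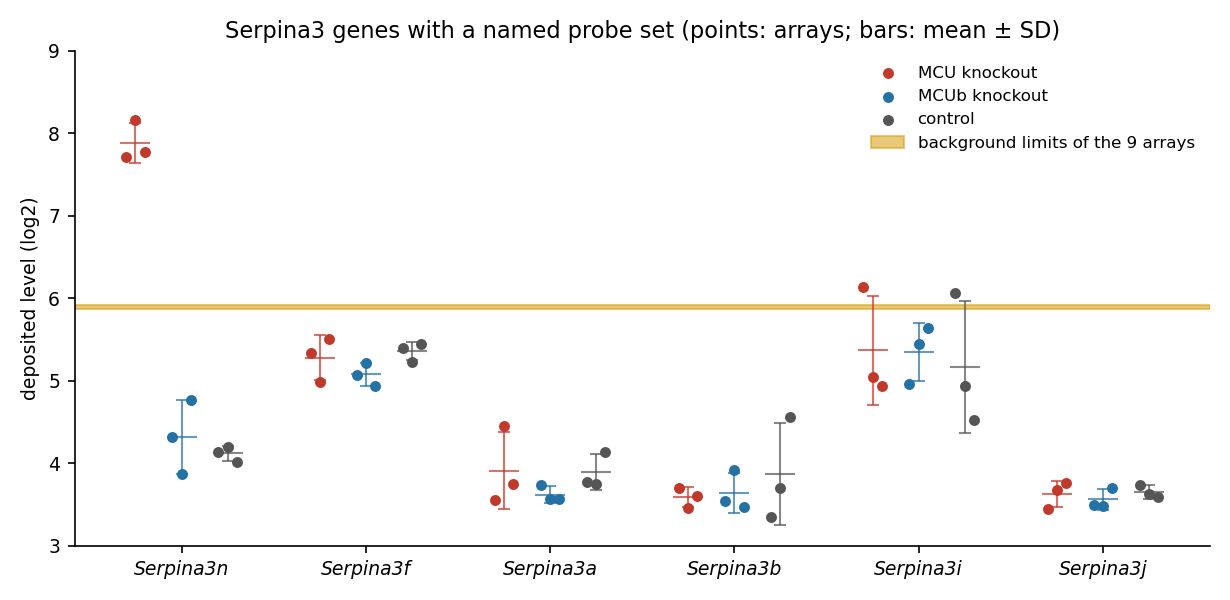
Deposited log2 level of the 6 Serpina3 genes with a named probe set, by genotype; points are arrays, bars the mean ± SD of 3 arrays, and the band marks the background limits of the 9 arrays (5.87 to 5.92). The 3 MCU knockout arrays of Serpina3n sit between 7.71 and 8.16, while Serpina3f lies below the band on all 9 arrays.

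Serpina3f, the other family member with a named probe set, lay below background in every genotype. Its log2 level (probe set TC1200002524.mm.2) was 5.34, 4.99 and 5.51 on the MCU knockout arrays, 5.07, 5.22 and 4.94 on the MCUb knockout arrays, and 5.40, 5.23 and 5.44 on the control arrays. MCU knockout and control overlapped. The mean was 5.28 ± 0.27 in MCU knockout muscle, 5.08 ± 0.14 in MCUb knockout muscle and 5.36 ± 0.11 in control muscle (SD, n = 3 each).

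In limma Serpina3f had an adjusted p of 0.914 between MCU knockout and control, where 0.14% of all probe sets were called, 0.706 between MCUb knockout and control, and 1 between the knockouts, where 0.158% were called. The 95% interval of the difference between MCU knockout and control ran from -0.49 to 0.34 on the log2 scale. The MCUb knockout arrays all lay below the control arrays, as 7.02% of all probe sets do, and both groups were below background. Since a probe set below background has no dependable level, no fold is given.

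The other Serpina3 genes of the cluster were dim as well. Serpina3a, Serpina3b and Serpina3j were below background on all 9 arrays. Serpina3i was above it on 2, with 6.13 on MCU knockout replicate 1 and 6.06 on control replicate 1. Its other MCU knockout arrays had 5.04 and 4.94, its MCUb knockout arrays 4.96, 5.44 and 5.64, and its other control arrays 4.94 and 4.52, so the 3 genotypes overlapped. Of these 4 genes, 0 passed the threshold in limma in any comparison and 0 had an unadjusted p under 0.05. Over all probe sets, 0.14% passed it between MCU knockout and control, 0.0225% between MCUb knockout and control and 0.158% between the knockouts. An unadjusted p under 0.05 was held by 10.1%, 8.11% and 5.70% in the same order. With such shares, 0 of 4 says little. The adjusted p of the 4 genes between MCU knockout and control was 0.753 or more. The plot of levels shows Serpina3n alone above the band in one genotype. How far the probes of one Serpina3 gene also bind transcripts of its near-identical copies is not known, and probe sequences were not used here. The 4 members without a named probe set leave the question unanswered for them.

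Along the chromosome, Serpina3n is the last measured gene at one edge of the serpin cluster. The other 17 measured serpins of the cluster include the Serpina1 genes, which encode antitrypsin, the main elastase inhibitor of plasma. Also there are Serpina6 for corticosteroid-binding globulin, Serpina10 for an inhibitor of a clotting factor, Serpina12 for the adipokine vaspin and Serpina5 for protein C inhibitor. Of the 17, 15 were below background on all 9 arrays. The MCU knockout level of the 17 ran from 3.14 to 6.35, against 3.06 to 6.90 in control. In limma 0 of 17 were called in any comparison; at an unadjusted p under 0.05 there were 0 between MCU knockout and control, 1 lower between MCUb knockout and control and 0 between the knockouts. Over all probe sets, 10.1%, 8.11% and 5.70% had an unadjusted p under 0.05 in these comparisons, in the same order. Their median difference between MCU knockout and control was -0.07 on the log2 scale, beside -0.02 over all probe sets, and they ranged from -0.34 to 0.50.

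Serpina11 was the one of the 17 above background throughout. It had 6.32, 6.29 and 6.35 on the MCU knockout arrays, 6.22, 6.10 and 6.82 on the MCUb knockout arrays and 6.90, 6.01 and 6.68 on the control arrays. The genotypes overlapped (adjusted p = 0.804 between MCU knockout and control in limma). The named genes of smallest p between MCU knockout and control, Serpina1b (adjusted p = 0.553), Serpina1f (0.599) and Serpina16 (0.688), were all below background.

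The genes next to the cluster were read to see whether the region as a whole differed. Of the 5 measured genes on each side, 0 of 10 were called between MCU knockout and control, where 0.14% of all probe sets were called. Their differences ran from -0.31 to 0.40 on the log2 scale, with adjusted p of 0.597 or more in limma. Of the 10, 4 were above background on all 9 arrays. The count of calls among so few genes says little about the region. On the side of Serpina3n, Gsc, its nearest measured neighbour and a homeobox gene, was below background on all arrays. Dicer1, which encodes the RNase that cuts miRNA precursors, followed at 10.16 in MCU knockout muscle, 9.99 in MCUb knockout muscle and 9.76 in control muscle (difference between MCU knockout and control 0.40, adjusted p = 0.597). These neighbours were picked by position and not by value.

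**Figure D2:**
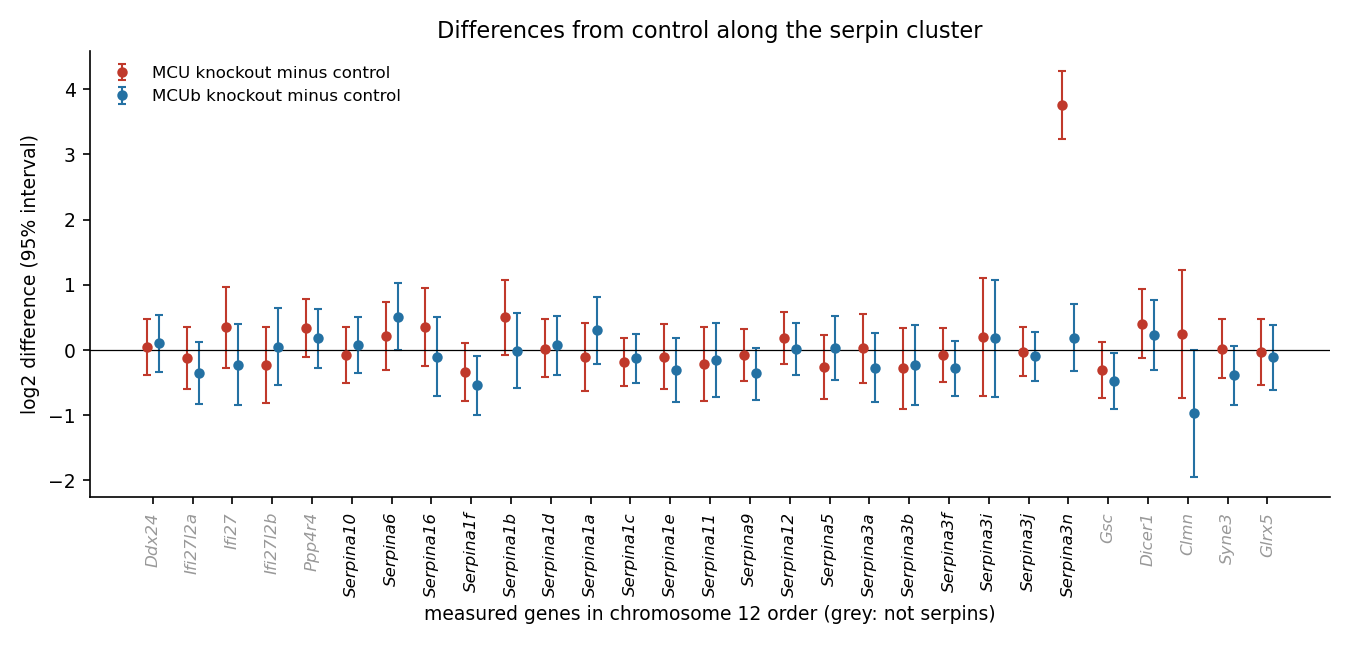
Log2 difference from control with its 95% interval for 29 measured genes in chromosome 12 order, MCU knockout in red and MCUb knockout in blue; grey names are the 10 flanking genes that are not serpins. Serpina3n stands at 3.76 in the MCU knockout, its control level being below background, and the other MCU knockout differences lie between -0.34 and 0.50.

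Among serpins encoded elsewhere, 36 were measured, 29 of them below background on all 9 arrays, and 4 were above it on all 9. These 4 are Serpinf1, which encodes the secreted pigment epithelium-derived factor, Serping1 for the inhibitor of complement C1, and the intracellular inhibitors Serpinb1a and Serpinb6a. Serpinf1 had 9.54, 10.08 and 9.63 on the MCU knockout arrays, 9.19, 9.68 and 9.95 on the MCUb knockout arrays and 9.69, 9.43 and 9.96 on the control arrays. Serping1 averaged 6.51 ± 0.08, 6.35 ± 0.11 and 6.38 ± 0.13 in MCU knockout, MCUb knockout and control muscle (SD, n = 3 each), and Serpinb1a 7.17 ± 0.39, 7.34 ± 0.35 and 7.19 ± 0.28. Each of these 3 overlapped between genotypes, with adjusted p of 0.819 or more between MCU knockout and control in limma.

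Over the 36, 0 were called in any comparison, and between MCU knockout and control 1 was higher and 1 lower at an unadjusted p under 0.05, a smaller share than the 10.1% of all probe sets. These were Serpinb6b, at 5.13 in MCU knockout and 4.53 in control muscle (adjusted p = 0.400), and Serpinb5 (adjusted p = 0.461), both below background throughout, as was Serpinb3c (adjusted p = 0.499). Their median difference between MCU knockout and control was -0.00 on the log2 scale. In all, 55 serpins were measured, and Serpina3n was the one whose 3 MCU knockout arrays were above background with all other arrays below it. Serpina3n was chosen for its high level there, so this largely restates the choice. Of the other 54 serpins, 45 were below background on all 9 arrays and 5 were above it on all 9. The share of all probe sets with this pattern was not counted.

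**Figure D3:**
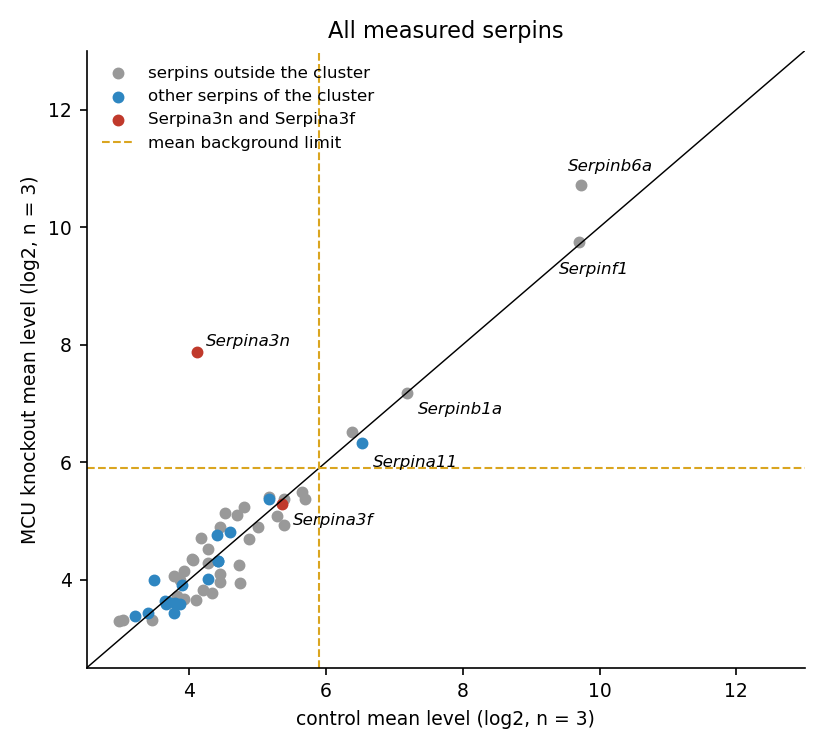
Mean log2 level of the 55 measured serpins in MCU knockout muscle (vertical) against control muscle (horizontal), 3 arrays each; the solid line marks equal levels and the dashed lines the mean background limit. Serpina3n lies at 7.88 against 4.12, and 48 of the other 54 serpins were below background on every MCU knockout array.

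Serpinb6a varied more than any of the other serpins above background throughout, but along another line. Its level was 8.74, 11.63 and 11.78 on the MCU knockout arrays, 11.59, 9.38 and 9.66 on the MCUb knockout arrays and 9.80, 9.64 and 9.76 on the control arrays. The high arrays were thus MCU knockout replicates 2 and 3 and MCUb knockout replicate 1, the same 3 on which Uty and Kdm5d were high. The difference between those 3 arrays and the other 6 was 2.17 on the log2 scale, the 18th highest of 22206 probe sets, which include Y-linked ones, and in 3.57% of all probe sets the 3 arrays did not overlap with the 6. These 3 arrays are no group of the study and the pattern was picked out after its values were seen, so it was not tested. Between genotypes Serpinb6a was not called (adjusted p = 0.680 between MCU knockout and control).

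**Figure D4:**
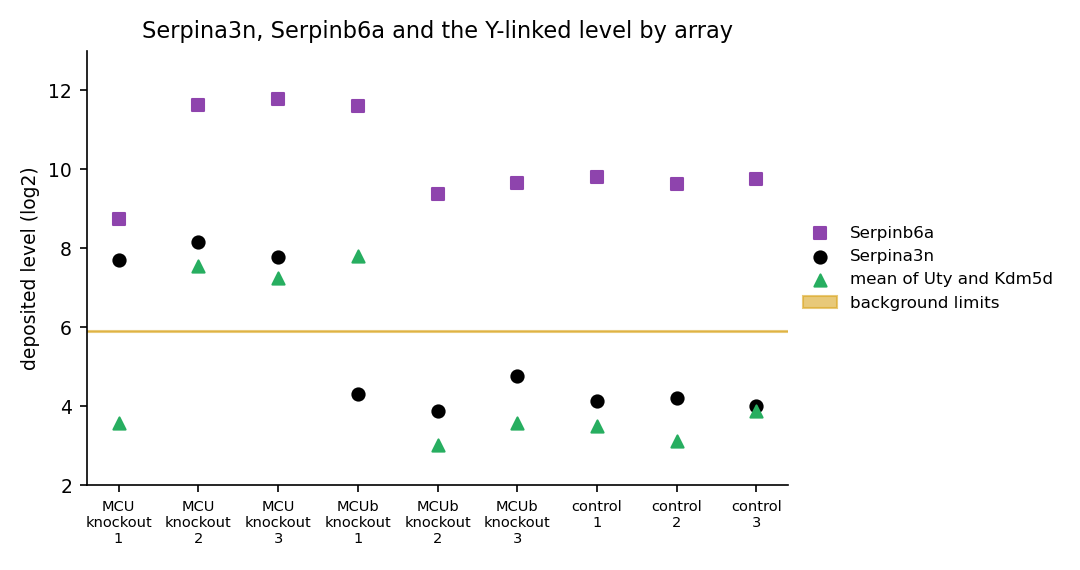
Deposited log2 level of Serpinb6a, Serpina3n and the mean of Uty and Kdm5d on each of the 9 arrays, with the background limits as a line. Serpina3n is at 7.71 or above on the 3 MCU knockout arrays, while Serpinb6a is at 11.59 or above on the 3 arrays with a Y-linked mean of 7.24 or more.

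The pathways known to induce Serpina3n were read from lists of their genes. Of 37 measured genes of the acute phase response and the STAT3 pathway, 24 were above control and 13 below it in the MCU knockout, and their median was 0.07 on the log2 scale beside -0.02 over all probe sets. In limma 0 were called, and 3 were higher and 2 lower at an unadjusted p under 0.05, near the 10.1% of all probe sets; 19 of the 37 were below background on all arrays. Stat3 itself, the transcription factor of the pathway, had 10.93, 10.53 and 10.86 on the MCU knockout arrays, 10.48, 10.94 and 11.04 on the MCUb knockout arrays and 11.99, 11.56 and 11.62 on the control arrays. Both knockouts thus lay below control without overlap, with a difference of -0.95 (adjusted p = 0.204) for the MCU knockout and -0.90 (adjusted p = 0.469) for the MCUb knockout. Of all probe sets, 7.33% were lower without overlap in the MCU knockout and 7.02% in the MCUb knockout.

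Cp, which encodes the copper protein ceruloplasmin, had 9.03, 8.03 and 8.44 on the MCU knockout arrays, 7.72, 7.13 and 7.57 on the MCUb knockout arrays and 7.17, 7.56 and 7.21 on the control arrays. It was higher on all 3 MCU knockout arrays than on any control array, as 6.08% of all probe sets were. It was also higher there than on any MCUb knockout array, and 1.56% of all probe sets stood above the other 6 arrays in this way. In limma it was not called against control (difference 1.19, SE 0.27, adjusted p = 0.201) or against the MCUb knockout (difference 1.02, adjusted p = 0.396). Orm1, an acute phase plasma protein gene, was below background throughout (adjusted p = 0.248).

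Glucocorticoid receptor targets were nearly all expressed, 23 of 27 above background on every array. In the MCU knockout 18 were above control and 9 below it (median 0.14 on the log2 scale, beside -0.02 over all probe sets). None was called in limma (0 of 27 in each comparison). Over all probe sets, 0.14% were called between MCU knockout and control, 0.0225% between MCUb knockout and control and 0.158% between the knockouts. At an unadjusted p under 0.05, 6 were higher and 1 lower in the MCU knockout, 7 of 27 in all, beside 10.1% of all probe sets. In the MCUb knockout 3 were higher and 2 lower than control, beside 8.11%. Between the knockouts 3 were higher and 1 lower, beside 5.70%. Errfi1, a feedback inhibitor of the EGF receptor, had 12.46, 12.30 and 12.75 on the MCU knockout arrays, 10.78, 11.67 and 11.45 on the MCUb knockout arrays and 11.43, 11.79 and 11.04 on the control arrays (difference from control 1.09, SE 0.27, adjusted p = 0.252). Like Serpina3n and Cp, Errfi1 stood higher on all MCU knockout arrays than on any other, as 1.56% of all probe sets did. Unlike Serpina3n, it was above background everywhere.

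Tsc22d3, or GILZ, a classical glucocorticoid target, stood above control in both knockouts, with means of 12.50 in MCU knockout, 12.74 in MCUb knockout and 11.80 in control muscle. Hsd11b1, the enzyme that regenerates active glucocorticoid inside cells, averaged 8.16, 7.98 and 7.05 in the same order. Neither was called against control in the MCU knockout (adjusted p of 0.333 and 0.345) or the MCUb knockout (0.411 and 0.555). The differences of Tsc22d3 were 0.70 for the MCU knockout and 0.94 for the MCUb knockout. Those of Hsd11b1 were 1.11 and 0.94. All were taken against the same control arrays. The part of glucocorticoid signalling in the level of Serpina3n was not tested.

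Proteases that serpins of this family can meet were read as their possible targets. Of 28 genes measured, 19 were below background on all arrays, and those included (named after their values were seen) Ctsg, Elane and Gzmb, the cathepsin G, neutrophil elastase and granzyme B genes. Between MCU knockout and control 11 lay above and 17 below, with a median of -0.11 on the log2 scale; 0 were called in limma, and 1 was higher and 2 lower at an unadjusted p under 0.05, near the 10.1% of all probe sets. Plau, the urokinase gene, had 7.03, 7.88 and 6.94 on the MCU knockout arrays, 6.50, 7.24 and 7.28 on the MCUb knockout arrays and 7.08, 6.37 and 6.04 on the control arrays (adjusted p = 0.474 between MCU knockout and control). Mcpt2 (adjusted p = 0.341) and Prss2 (0.462) were below background throughout.

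Markers of cells that can make Serpina3 proteins were read beside Serpina3n. Of 12 liver markers, 9 were below background on all arrays, and Trf, the transferrin gene, was the one above it on all. The log2 of their summed signal was 8.91 to 9.51 on the MCU knockout arrays, 8.84 to 9.41 on the MCUb knockout arrays and 8.93 to 9.21 on the control arrays. For 10 macrophage and neutrophil markers the log2 sum was 10.96 to 11.57 in MCU knockout, 11.11 to 12.11 in MCUb knockout and 11.74 to 12.33 in control muscle, so it was lower in the MCU knockout than in control without overlap. The sum is led by Mrc1, the mannose receptor gene, at 11.14, 9.48 and 10.11 in MCU knockout and 11.91, 11.43 and 11.15 in control muscle (adjusted p = 0.496). The mean log2 level of the same 10 overlapped (6.37 to 6.59 in MCU knockout, 6.26 to 7.17 in control), and 5 were above control and 5 below it. In the MCU knockout 2 were higher at an unadjusted p under 0.05, beside 10.1% of all probe sets. These were Adgre1 (5.96 in MCU knockout, 5.21 in control, adjusted p = 0.416) and Csf1r (7.25 in MCU knockout, 6.45 in control, adjusted p = 0.486). The neutrophil genes S100a8 (3.78 in MCU knockout, 5.86 in control), S100a9 (5.65 and 6.77) and Mpo (5.08 and 5.70), named after their values were seen, were below background on all MCU knockout arrays. They were picked from a list with as many genes above control as below it. The control mean of S100a8 lay below the background limit too, and control replicate 3 held its highest control level. No change of neutrophils is read from these genes. For 8 fibroblast markers the log2 sum was 16.31 to 17.12 in MCU knockout, 16.16 to 16.77 in MCUb knockout and 15.95 to 16.44 in control muscle, with overlap. The part of these cells in the level of Serpina3n was not tested.

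Genes of regeneration and of lost nerve supply were read in the same way. The mean log2 level of 9 satellite cell and regeneration genes was 6.86 to 7.12 on the MCU knockout arrays, 6.90 to 7.10 on the MCUb knockout arrays and 6.80 to 6.95 on the control arrays. That of 8 denervation genes was 6.73 to 7.14, 6.82 to 6.95 and 7.01 to 7.04 in the same order. The MCU knockout thus overlapped with control, and the MCUb knockout lay below it by a narrow gap. Of single probe sets, 7.02% were lower without overlap in the MCUb knockout, and no drop is read from this mean. None of either list was called in limma (0 of 9 and 0 of 8 in each comparison). Over all probe sets, 0.14% were called between MCU knockout and control, 0.0225% between MCUb knockout and control and 0.158% between the knockouts. At an unadjusted p under 0.05 there were 0 of either list between MCU knockout and control, beside 10.1% of all probe sets. Between MCUb knockout and control 1 of the 9 was higher and 0 of the 8 passed, beside 8.11%. Counts among so few genes say little.

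The genes whose pattern over the 9 arrays was most like that of Serpina3n were sought among 9278 named genes above background on at least 3 arrays. By Pearson correlation, given as a description over 9 arrays that fall into MCU knockout and the rest, the closest were Snx9 (0.987), Rhobtb3 (0.979), Dynlt1b (0.976), Dynlt1c (0.972), Dynlt1a (0.964) and Dynlt1f (0.958). Snx9 encodes a sorting nexin of endocytosis, and the Dynlt1 genes near-identical copies of a dynein light chain. Since the MCU knockout arrays set Serpina3n apart from all others, any gene with that split scores high, and the measure says little about variation within a genotype. None of the 6 lies on chromosome 12: Rhobtb3 is on chromosome 13 and the rest on chromosome 17.

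Snx9 had 11.32, 11.23 and 11.23 on the MCU knockout arrays, 9.53, 9.22 and 9.47 on the MCUb knockout arrays and 9.41, 9.04 and 9.22 on the control arrays. Unlike Serpina3n, it and the other 5 were well above background in every genotype. The genes running most opposite were Wdr83os (-0.990), Mcu (-0.982) and Galt (-0.976), on chromosomes 8, 10 and 4. Wdr83os averaged 8.55 ± 0.12 in MCU knockout, 9.84 ± 0.23 in MCUb knockout and 10.14 ± 0.07 in control muscle (SD, n = 3 each).

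**Figure D5:**
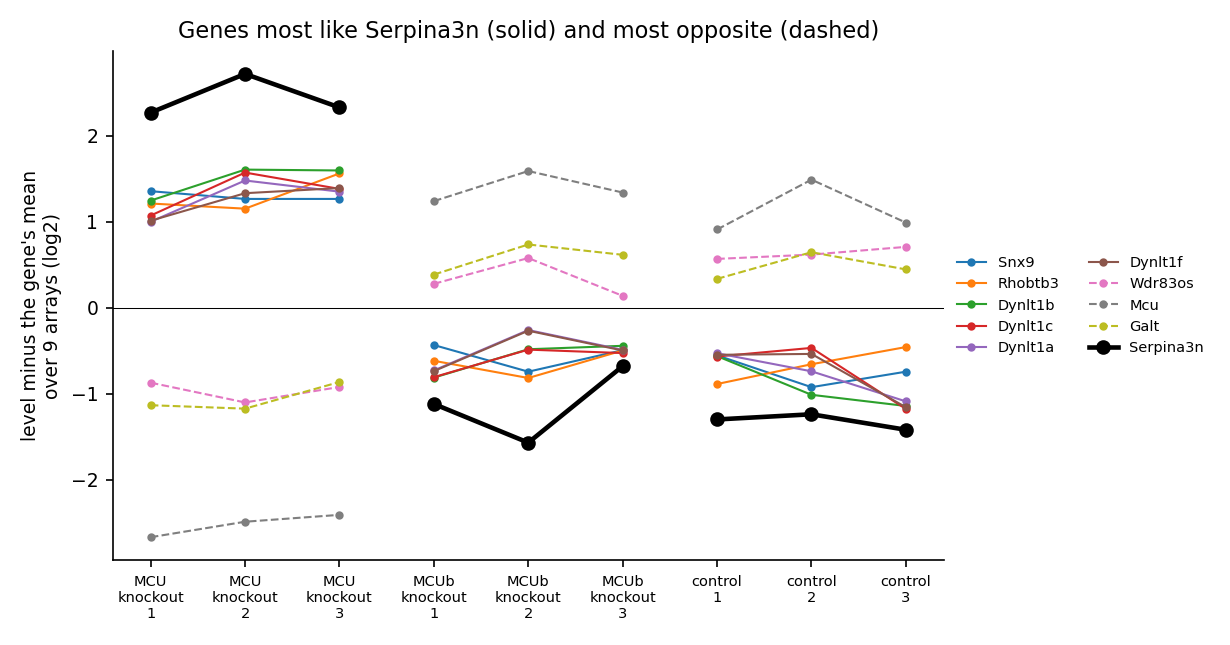
Log2 level of each gene minus its own mean over the 9 arrays, by array; the thick black line is Serpina3n, solid lines the 6 genes most like it and dashed lines the 3 most opposite, joined only within a genotype. Serpina3n and the 6 lie above 0 on all MCU knockout arrays and below 0 on all others.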

How the data were processed

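Total RNA of flash-frozen tibialis anterior was hybridised to Affymetrix Clariom S mouse arrays, 1 array per muscle sample. Per the submitters' processing notes, the deposited log2 values were made with Affymetrix Expression Console. No source used here states its version, how probes were summarised and normalized, or the base of the logarithm, which was read as 2. Of 28846 values per array, 22206 belonged to gene probe sets, and 19572 of these carry 1 gene symbol in the platform table, 0 several and 2634 none. All 19572 were updated by gene identifier to RefSeq symbols (GRCm38.p6, used only for names, gene order and promoter sequence). For a gene with several probe sets, the brightest was read.

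A probe set counted as above background where it lay over the 95th percentile of the 23 background sets on that array (5.87 to 5.92 on the log2 scale). A bound on a fold sets the brighter group's mean against the mean of the higher of that limit and the array's own value. Tests used limma 3.58.1 in R 4.3.3 (lmFit, eBayes, two-sided) on all 9 arrays, with 6 residual and 5.06 prior degrees of freedom and Benjamini-Hochberg adjustment over the 22206 probe sets. The planned counts over 5 further Serpina3 genes rest on 1, the others having no named probe set. The number of arrays limits the precision.

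The members and lists were chosen with earlier results of these data known. Named genes were the members, Mcu, up to 3 genes of smallest p per list in the comparison of MCU knockout with control, serpins above background on every array of a group, the 6 genes most like Serpina3n and the 3 most opposite, and Uty and Kdm5d. Gsc and Dicer1 were named by position. Serpina3a, Serpina3b, Serpina3i and Serpina3j were named as genes of the family. Serpina5, Serpina6, Serpina10 and Serpina12 were named to describe the cluster. Trf and Mrc1 were named for their place within their marker lists. Further names outside that rule are marked as chosen after their values were seen. Same-numbered arrays were not paired: the correlations of their deviations from the group means lay between -0.12 and 0.09.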

Additional observations from a re-analysis of the deposited data

How the results depend on the processing

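The difference of Serpina3n between MCU knockout and control was 3.62 to 3.84 with 1 array left out and 3.66 to 3.81 otherwise, and that between the knockouts was 3.34 to 3.79 with 1 array left out. Alternatives that leave both group means alone (the filter, the intensity trend, the fit of only the groups compared, the replicate block, an array of the third group left out) cannot move these values, which also chose the gene. The difference of Serpina3n between MCUb knockout and control (0.19) had an adjusted p of 0.73 or more in all 17 alternatives and turned to -0.03 without MCUb knockout replicate 3, within a range of -0.03 to 0.42 over the arrays left out. Serpina3f was never called, and its difference between MCU knockout and control (-0.08) turned to 0.07 without MCU knockout replicate 2, within a range of -0.19 to 0.07 over the arrays left out. The background counts moved more, and the causes were not tested. Between MCU knockout and control 31 probe sets were called, 16 with the mean of Uty and Kdm5d as a covariate and 20 to 98 with 1 array left out (98 without control replicate 2, 20 without MCU knockout replicate 3). Between MCUb knockout and control 5 were called, 1 with only the 2 groups compared in the fit and 0 to 20 with 1 array left out (20 without control replicate 2, 3 without MCU knockout replicate 2, 2 without MCUb knockout replicate 2, and 0 without control replicate 1, MCUb knockout replicate 1 or MCUb knockout replicate 3). Between the knockouts 35 were called, 61 with array quality weights and 13 to 43 with 1 array left out (13, 23 and 19 without MCU knockout replicate 3, MCUb knockout replicate 2 and MCUb knockout replicate 3). Of the genes on the 5 lists 0 were called in any setting, except 1 between the knockouts without MCUb knockout replicate 1 (0 to 1 over the arrays left out): Pdk4, named after its values were seen, with a difference of 2.27 and an adjusted p of 0.0357, against 1.87 and 0.112 over all arrays. With the replicate number as a replicate block, although the numbers did not pair the samples, 24, 5 and 28 probe sets were called in the comparisons in the above order, and the difference of Serpina3n between MCU knockout and control was 3.76. Reading the probe set with the lowest mean instead of the highest changed no count on the lists. As 55 of 19505 genes had several probe sets, this setting could hardly change a count. Serpina3n passes the filter on dim probe sets only through the MCU knockout arrays. Below the background limit, levels have no dependable order.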

Other observations

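Lcn2, which encodes the secreted acute phase protein lipocalin 2 and stands on both the acute phase and the glucocorticoid list, was singled out after its values were seen. Its log2 level was 4.49, 4.69 and 4.06 on the MCU knockout arrays, 6.10, 3.84 and 4.21 on the MCUb knockout arrays, and 4.79, 4.41 and 7.63 on the control arrays. It was thus above background on 2 arrays, MCUb knockout replicate 1 and control replicate 3. Its relation to Serpina3n was not tested. The neutrophil genes S100a8 (8.11 and 7.94) and S100a9 (9.39 and 8.55) had their highest levels on the same arrays, and their part in the level of Lcn2 was not tested.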
